A study of Homo sapiens with 4 samples.

Results

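SNTB1 encodes beta-1 syntrophin, a scaffold protein of the dystrophin-associated complex, and its RNA was compared here between HGC-27 control and RUNX3 KO cells together with 8 other genes of that complex. The 9 genes were chosen by symbol from 25559 gene symbols in the count tables: the syntrophins SNTB1 and SNTB2, dystrophin (DMD) and its paralog utrophin (UTRN), the dystrobrevins DTNA and DTNB, dystroglycan (DAG1), and the sarcoglycans SGCB and SGCE. HGC-27 is a poorly differentiated human gastric cancer cell line. RNA-seq was carried out on 2 libraries of wild-type HGC-27 cells (control) and 2 of RUNX3 knock-out cells (RUNX3 KO). The KO cells had received Cas9 and a guide against a coding exon of RUNX3 by lentivirus, then puromycin and single-cell cloning, so they may stand for 1 clone. The sources used here do not say how many clones were used, whether replicates were separate cultures, or whether the control cells carried the Cas9 vector. The p-values below therefore measure only the spread between these libraries, which may be technical.

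The dystrophin-associated complex spans the plasma membrane and ties the actin cytoskeleton to the extracellular matrix. Dystrophin or utrophin binds actin inside the cell and the transmembrane part of dystroglycan, whose sugar-bearing extracellular part holds laminin, while the sarcoglycans stabilise the complex in the membrane. Dystrobrevins and syntrophins are adaptors on the inner side, and syntrophins bring kinases, channels and transporters to the membrane through their PDZ domain. The complex is best known from muscle, where its loss causes muscular dystrophy, but epithelial and other non-muscle cells assemble forms of it with utrophin, beta syntrophins and epsilon sarcoglycan.

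Each library held between 11731401 and 12110876 reads assigned to genes. For RUNX3, the targeted gene, control libraries gave 351 and 308 reads and RUNX3 KO libraries 225 and 185, so its transcript was lower but still counted. The paper reports that RUNX3 protein was absent from the KO cells by immunoblot, which read counts do not measure. Of the 9 genes, 8 passed the filter on low counts and were tested among 12967 genes. DTNA did not pass, and DMD passed through its reads in the RUNX3 KO libraries alone, so the counts and the median over the 8 genes are descriptions only. At an adjusted p under 0.05 (the quasi-likelihood test of edgeR, with p-values adjusted over all tested genes by Benjamini-Hochberg), 4 of the 8 fell in RUNX3 KO cells and 2 rose. The same rule called 24.4% of all tested genes lower and 24.5% higher, 48.9% in all, so a call by itself said little about this group. At a fold change of at least 2 with an unadjusted p of at most 0.05, the criteria of the study, SNTB1 alone fell (lower: 4.01% of all tested genes) and DMD alone rose (higher: 2.11%, with 6.12% in either direction). Control and RUNX3 KO libraries did not overlap in CPM for 6 of the 8 tested genes, against 72.4% of all tested genes. The median log2 fold change of the 8 genes was -0.13, and that of all tested genes was -0.0021.

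**Figure D1:**
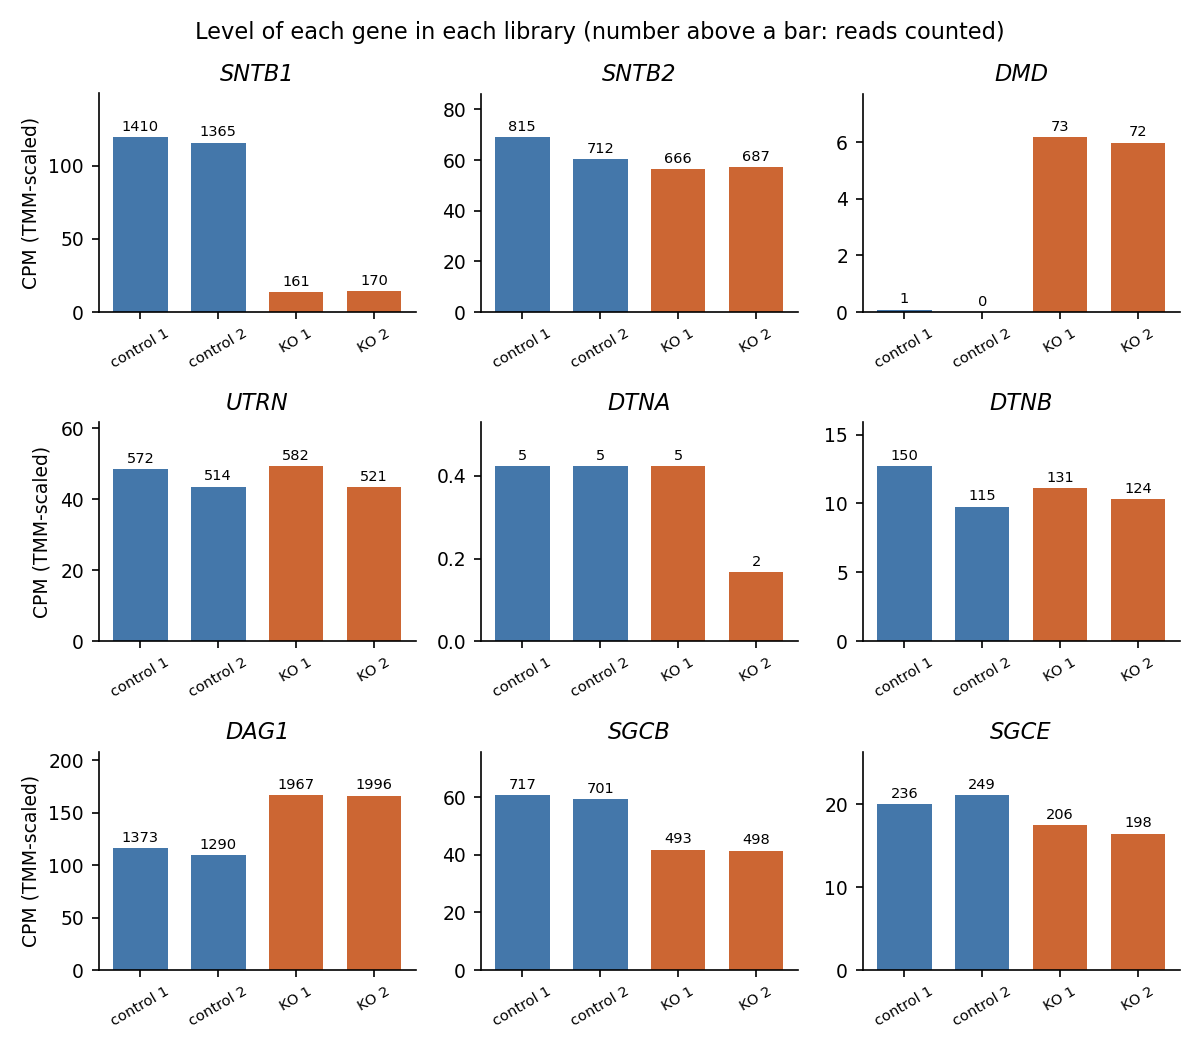
Level of the 9 genes in each library, in CPM (reads scaled to library size with TMM factors, y axis from 0, a scale for each gene), with the number of reads above each bar; blue bars are control and orange bars RUNX3 KO libraries. SNTB1 fell from 1410 and 1365 reads to 161 and 170, DMD went from 1 and 0 reads to 73 and 72, and the other genes kept the same order of magnitude.

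SNTB1 fell most among the syntrophins and among all 9 genes. The 2 control libraries held 1410 and 1365 SNTB1 reads and the 2 RUNX3 KO libraries 161 and 170. Both control libraries were far above both RUNX3 KO libraries, and replicates within a condition lay close together. In CPM, which are reads scaled to library size with TMM factors, this was a fall from 118 ± 2.66 to 13.9 ± 0.353 (SD, n = 2 per condition), 8.46-fold, with a log2 fold change of -3.08 (SE 0.0686, edgeR adjusted p = 2.28e-58). Among the genes that were lower in RUNX3 KO cells, SNTB1 ranked 3 by p and 92 by fold change.

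SNTB2, which encodes beta-2 syntrophin, hardly moved. It had 815 and 712 reads in control libraries and 666 and 687 in RUNX3 KO libraries, or 64.7 ± 6.15 and 56.8 ± 0.507 CPM (SD, n = 2 per condition). The control libraries were above the RUNX3 KO libraries, but their own gap was wider than that between the lower of them (60.3 CPM) and the higher RUNX3 KO library (57.2 CPM). The log2 fold change was -0.19 (SE 0.0588, edgeR adjusted p = 0.00542). This call was lost with DESeq2 (adjusted p = 0.150), without a filter on low counts (edgeR adjusted p = 0.129), and when control replicate 1 (edgeR adjusted p = 0.344) or either RUNX3 KO replicate was left out (adjusted p = 0.298 and 0.272, edgeR). The gamma syntrophin genes SNTG1 and SNTG2 had 0 reads in all 4 libraries.

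The make-up of the syntrophin reads therefore differed between conditions. Of the reads on SNTB1 and SNTB2 together, SNTB1 took 63.4% (exact binomial 95% interval 61.3 to 65.4%) and 65.7% (63.6 to 67.8%) in the control libraries. In the RUNX3 KO libraries it took 19.5% (16.8 to 22.3%) and 19.8% (17.2 to 22.7%). The intervals, which cover counting error only, did not overlap between conditions, and the share fell by 44.9 percentage points. An exact two-sided permutation test over libraries gave p = 0.333, the smallest p that 2 libraries against 2 allow, so this test cannot reach 0.05 for any of the 3 pairs of paralogs compared, before or after adjustment. When each gene was counted per kilobase of its MANE Select transcript (4.94 kb for SNTB1 and 9.75 kb for SNTB2), the share went from 78.2 ± 1.24% to 32.6 ± 0.363% (SD, n = 2 per condition). The log2 fold change of SNTB1 minus that of SNTB2 was -2.89 (SE 0.0904, 95% interval -3.07 to -2.72).

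**Figure D2:**
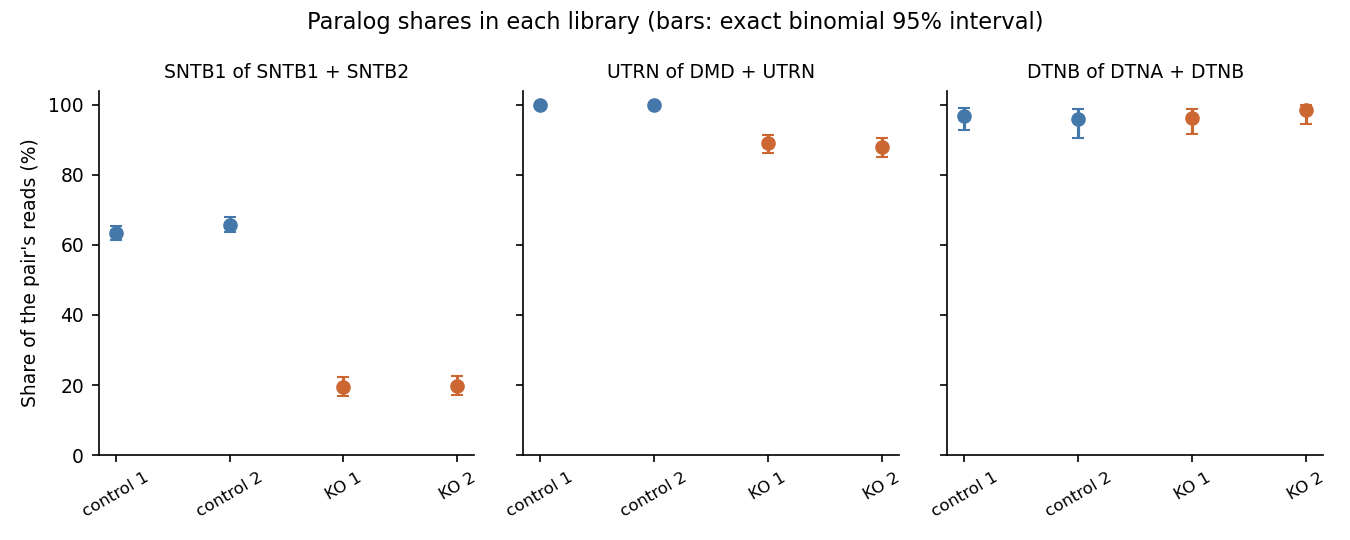
Share of the reads of 3 pairs of paralogs (y axis, percent from 0) taken by SNTB1, UTRN and DTNB in each library (x axis); points are libraries, blue for control and orange for RUNX3 KO, and bars are exact binomial 95% intervals. The SNTB1 share dropped from 63.4 and 65.7% to 19.5 and 19.8%, the UTRN share from 99.8 and 100% to 88.9 and 87.9%, and the DTNB intervals of all 4 libraries overlapped.

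Sequence shared between genes was small. No window of 50 bases in the MANE Select transcript of SNTB1 occurred in a transcript of another of the 9 genes. Of its 4892 windows, 197 (4.03%) occurred in another gene, MTBP, which lies on the opposite strand and shares 297 bases of exon with SNTB1. A non-coding RNA gene on the opposite strand, absent from the counts, shares 437 bases (6.43%) with the merged exons of all annotated SNTB1 transcripts. MTBP, which encodes an MDM2-binding protein, had 2667 and 2674 reads in control and 3546 and 3477 in RUNX3 KO libraries (log2 fold change 0.38, SE 0.0317, edgeR adjusted p = 9.29e-19), the opposite direction to SNTB1. For SNTB2, 86 of 9705 windows (0.886%) occurred in other genes, 11 of them in another of the 9 genes. Whether counting used strand is not given in the sources used here, so reads in the shared part are uncertain. SNTB1 occupies chr8:121547985-121825513 (hg19, minus strand). Of the 40 nearest tested genes, 17 had negative and 23 positive log2 fold changes (median 0.04), and the drop of SNTB1 was matched or exceeded by 2 of them. MTBP flanks SNTB1 on one side and HAS2 on the other. HAS2, a hyaluronan synthase gene, went from 105 and 91 reads to 0 and 1.

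By a rule that compared the 4 log2 CPM values of each gene after subtracting the gene's mean, the 5 genes most like SNTB1 among 10868 were MMP2, CD44, MAST4, RIN1 and GRIK3. MMP2, a matrix metalloproteinase gene, was closest, at a distance of 0.0688 on the log2 scale over 4 libraries, with 309 and 311 reads in control and 36 and 36 in RUNX3 KO libraries. CD44, at 0.235, had 1266 and 1221 reads in control and 129 and 125 in RUNX3 KO libraries. MAST4 went from 92 and 94 reads to 9 and 7, RIN1 from 149 and 134 to 19 and 14, and GRIK3 from 662 and 652 to 106 and 98. With 4 libraries in 2 conditions, likeness here meant mainly a fall of similar size, with log2 fold changes from -3.53 (MAST4) to -2.70 (GRIK3).

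DMD, which encodes dystrophin, went the other way. Its reads numbered 1 and 0 under control and 73 and 72 under RUNX3 KO conditions. The gene was thus barely counted in control cells and present at a low level in both RUNX3 KO libraries, at 6.09 ± 0.139 CPM (SD, n = 2). Per effective library, reads in RUNX3 KO cells were 144 times those in control cells, with an exact 95% counting interval of 25.4 to 5710, which is wide because only 1 control read stands in the denominator. The fitted log2 fold change was 6.85 (SE 0.500, edgeR adjusted p = 7.92e-22). DMD passed the filter on low counts through the RUNX3 KO libraries alone, so that a tested DMD had to differ, and the p is given as a description. The size of the change rested on the prior count, being 4.89 with a prior count of 2, and on the single control read, being 9.18 without control replicate 1 and 6.0 without control replicate 2. DMD is not testable when 10 reads are required in every library. The gene spans chrX:31115794-33357726 (hg19, minus strand), about 2240 kb, with several promoters that give full-length and shorter dystrophins. A count per gene does not tell which of them the reads came from. Of the 40 nearest tested genes, 20 were lower and 20 higher, and none rose as much as DMD.

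UTRN encodes utrophin, which takes the place of dystrophin in many non-muscle cells. It had 572 and 514 reads in control and 582 and 521 in RUNX3 KO libraries, and the conditions overlapped fully. Its level was 46.0 ± 3.46 CPM in control and 46.3 ± 4.22 CPM in RUNX3 KO cells (SD, n = 2 per condition), with a log2 fold change of 0.01 (SE 0.0676, edgeR adjusted p = 0.923). The 3 genes most like UTRN by the same rule were PACRGL, FAT4 and MAN1A2, with log2 fold changes of 0.02, 0.00 and 0.02. UTRN made up 99.8% (95% interval 99.0 to 100%) and 100% (99.3 to 100%) of the reads on DMD and UTRN in control libraries, and 88.9% (86.2 to 91.2%) and 87.9% (85.0 to 90.4%) in RUNX3 KO libraries. The share fell by 11.6 percentage points (exact permutation p = 0.333, again the smallest possible). Per kilobase of MANE Select transcript, which is 13.99 kb for DMD and 12.92 kb for UTRN, the RUNX3 KO share was 89.2 ± 0.663% (SD, n = 2). With the merged exons of all annotated transcripts as lengths, 55.04 kb for DMD, it was 96.5 ± 0.229% (SD, n = 2). By each of these measures utrophin reads outnumbered dystrophin reads in all 4 libraries.

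The dystrobrevins, cytoplasmic partners of dystrophin that carry syntrophin binding sites, showed no change that passed the test. DTNB had 150 and 115 reads in control and 131 and 124 in RUNX3 KO libraries, and both RUNX3 KO values lay between the control values. The log2 fold change was -0.07 (SE 0.132, edgeR adjusted p = 0.701), and it was 0.14 without control replicate 1. DTNA had 5 and 5 reads in control and 5 and 2 in RUNX3 KO libraries, too few for a comparison. Without a filter on low counts its fitted log2 fold change was -0.51 (SE 0.615, edgeR adjusted p = 0.603). DTNB made up 96.8% and 95.8% of the dystrobrevin reads under control and 96.3% and 98.4% under RUNX3 KO conditions, so the beta form dominated in every library and the conditions overlapped (exact permutation p = 0.667, two-sided).

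DAG1, which encodes dystroglycan, rose. It had 1373 and 1290 reads in control libraries and 1967 and 1996 in RUNX3 KO libraries. Both RUNX3 KO libraries were above both control libraries, at 166 ± 0.444 against 113 ± 4.94 CPM (SD, n = 2 per condition). The log2 fold change was 0.56 (SE 0.0401, edgeR adjusted p = 2.72e-22), a rise of 1.47-fold, and it stayed between 0.51 and 0.61 in the alternatives tried. DAG1 lies at chr3:49506146-49573051 (hg19, plus strand). Of its 40 nearest tested genes, 3 rose at least as much, and their median log2 fold change was 0.01.

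The sarcoglycans fell, by less than 2-fold for both listed genes. SGCB, the beta sarcoglycan, had 717 and 701 reads in control and 493 and 498 in RUNX3 KO libraries, with no overlap between conditions. The level was 60.1 ± 0.941 CPM in control and 41.6 ± 0.245 CPM in RUNX3 KO cells (SD, n = 2 per condition), with a log2 fold change of -0.53 (SE 0.0627, edgeR adjusted p = 7.54e-12). SGCE, the epsilon sarcoglycan, an imprinted gene expressed widely outside striated muscle, had 236 and 249 reads in control and 206 and 198 in RUNX3 KO libraries. Its log2 fold change was -0.28 (SE 0.10, edgeR adjusted p = 0.0166). The call of SGCE was lost with DESeq2 (adjusted p = 0.223) and when control replicate 2 (edgeR adjusted p = 0.110) or either RUNX3 KO replicate was left out (adjusted p = 0.0882 and 0.150, edgeR). PEG10, the imprinted gene beside SGCE, shares 219 bases of exon with it on the opposite strand, and went from 4751 and 4552 to 2676 and 2894 reads (log2 fold change -0.75, SE 0.0309, edgeR adjusted p = 2.85e-38). Beside SGCB, SPATA18 went from 40 and 40 reads to 4 and 4, whereas the 40 tested genes nearest to SGCB had a median log2 fold change of 0.05.

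**Figure D3:**
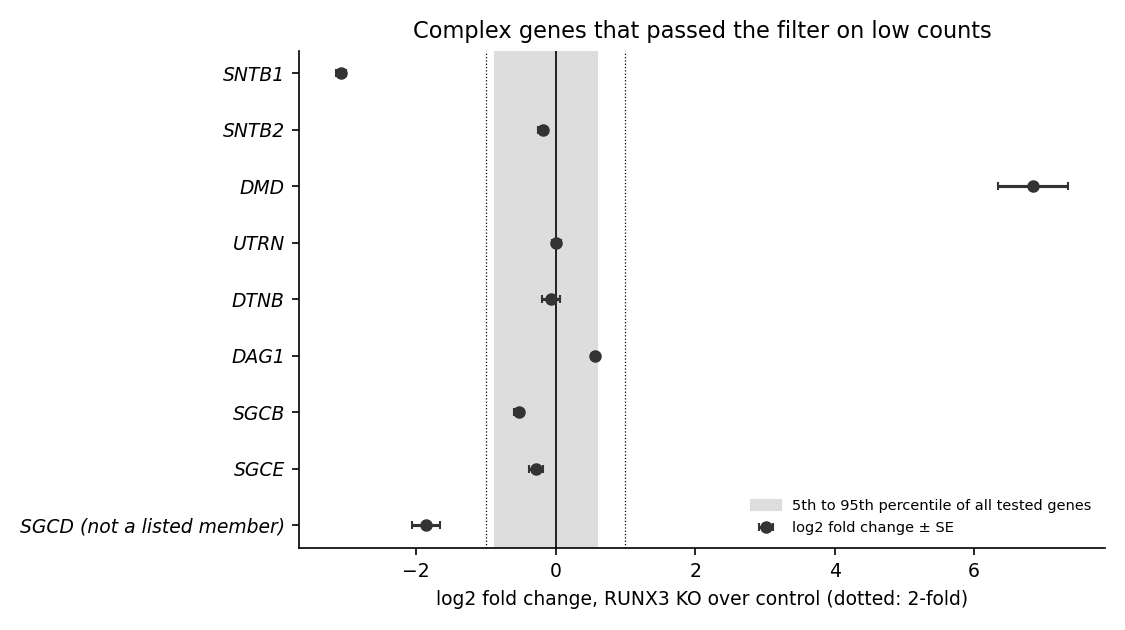
log2 fold change of RUNX3 KO over control (x axis) for the 8 tested genes and for SGCD, with SE as bars; grey marks the range from percentile 5 (-0.87) to percentile 95 (0.59) of all tested genes. SNTB1 at -3.08, SGCD at -1.86 and DMD at 6.85 lie outside the grey range, and DAG1 at 0.56 lies near its upper edge.

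The other genes lie at chr16:69221050-69342955 (SNTB2, plus strand), chr6:144606471-145174170 (UTRN, plus), chr18:32073255-32471808 (DTNA, plus), chr2:25600067-25896516 (DTNB, minus), chr4:52886872-52904465 (SGCB, minus) and chr7:94153516-94285884 (SGCE, minus) in hg19.

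Levels of the 9 genes were compared with each other as CPM per kilobase of MANE Select transcript. In control cells the order was SNTB1 (23.8 ± 0.53), DAG1 (20.9 ± 0.918), SGCB (14.1 ± 0.221), SGCE (11.0 ± 0.420), SNTB2 (6.63 ± 0.631), DTNB (4.64 ± 0.866) and UTRN (3.56 ± 0.268), with DTNA and DMD under 0.1 (SD, n = 2 for each). The libraries of neighbours in this order did not overlap. In RUNX3 KO cells DAG1 came first (30.9 ± 0.0918), followed by SGCB (9.79 ± 0.0582), SGCE (9.07 ± 0.371), SNTB2 (5.82 ± 0.0522), DTNB (4.42 ± 0.231), UTRN (3.59 ± 0.327), SNTB1 (2.81 ± 0.0716), DMD (0.435 ± 0.00991) and DTNA (0.0449 ± 0.0277). On this scale SNTB1 went from rank 1 to rank 7. Ranks depended on the length used: per kilobase of merged exons SNTB1 went from rank 1 to rank 5, at 2.05 ± 0.0521 CPM per kilobase in RUNX3 KO cells (SD, n = 2). With merged exons of 20.88 kb in place of a transcript of 1.87 kb, SGCE was at rank 7 in both conditions.

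A further 12 genes for subunits of the complex were looked up, of which 2 passed the filter and 1 was called. The gene called was SGCD, the delta sarcoglycan, which joins beta sarcoglycan in the core of the sarcoglycan complex. It had 103 and 103 reads in control and 25 and 32 in RUNX3 KO libraries, a log2 fold change of -1.86 (SE 0.198, edgeR adjusted p = 1.11e-13). The log2 fold change of SGCD minus that of SGCB was -1.33 (SE 0.208, 95% interval -1.74 to -0.93). The alpha sarcoglycan gene SGCA, sarcospan (SSPN) and the caveolin gene CAV3 had at most 4 reads in any library, and DRP2, a dystrophin-related gene, had 3 to 13.

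Enzymes that put the laminin-binding sugar on dystroglycan were tested as a list of 19 genes, 17 of which passed the filter. Of these, 5 rose, 3 fell and 9 did not pass the test, none reached 2-fold, and the median log2 fold change was 0.12. The same rule called 24.5% of all tested genes higher and 24.4% lower, 48.9% in all. POMK, a kinase of this pathway counted under its older symbol SGK196, fell from 70 and 60 to 42 and 43 reads (log2 fold change -0.62, SE 0.201, edgeR adjusted p = 0.00679).

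A list of 14 genes held extracellular proteins that bind dystroglycan, with laminin entered by its alpha, beta and gamma chains. All were tested, 6 rose, 3 fell and 5 did not pass (all tested genes: 24.5% higher, 24.4% lower), and the median log2 fold change was 0.02. LAMA1, a laminin alpha chain, rose from 17.5 ± 0.714 to 79.8 ± 0.208 CPM (SD, n = 2 per condition). SLIT3, a guidance ligand, fell from 709 and 623 to 131 and 137 reads (log2 fold change -2.33, SE 0.0889, edgeR adjusted p = 2.25e-40).

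On the inner side, 12 of 17 listed partners of syntrophins and dystrobrevins were tested, of which 5 rose and 2 fell (all tested genes: 24.5% higher, 24.4% lower), and their log2 fold changes had a median of 0.05. SYNC, which encodes the dystrobrevin-binding protein syncoilin, rose from 138 and 129 to 313 and 340 reads (log2 fold change 1.28, SE 0.103, edgeR adjusted p = 2.30e-19). MAPK12, a syntrophin-binding kinase, fell from 504 and 530 to 330 and 291 reads (log2 fold change -0.75, SE 0.0771). CTNNAL1, which encodes the dystrobrevin-binding alpha-catulin, rose by 0.49 on the log2 scale (SE 0.0433). Among 9 tested cytoskeletal partners of dystrophin and utrophin, 3 rose and 3 fell, against the same 24.5% and 24.4% of all tested genes, with a median log2 fold change of -0.04. With 9 to 17 tested genes a list, nothing particular to a list is read from these counts. KRT8, a keratin gene, went from 19 and 11 to 72 and 81 reads (log2 fold change 2.33, SE 0.251). ANK3, the ankyrin-G gene, rose from 163 and 158 to 508 and 508 reads (log2 fold change 1.65, SE 0.0885), whereas ANK2, ankyrin-B, fell from 336 and 341 to 225 and 240 (log2 fold change -0.55, SE 0.0893).

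**Figure D4:**
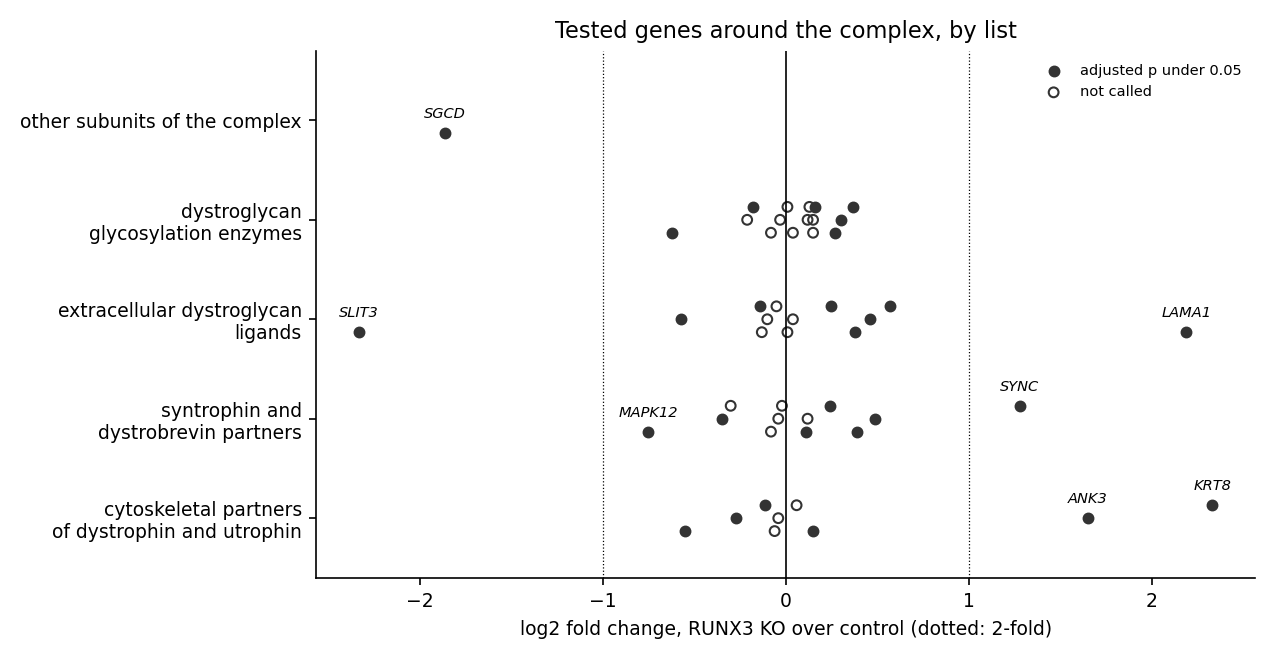
log2 fold change of RUNX3 KO over control (x axis) for tested genes of 5 lists around the complex (rows); filled points passed an adjusted p of 0.05 and open points did not, and vertical offsets within a row only keep points apart. Most of the genes drawn lie within 2-fold in either direction, and KRT8 (2.33), LAMA1 (2.19), ANK3 (1.65), SYNC (1.28), SGCD (-1.86) and SLIT3 (-2.33) lie beyond.

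The labelled cell type was checked against marker genes. All 9 gastric markers had at most 3 reads in every library and 8 of them had 0, so the libraries held little RNA of the genes that define stomach epithelium. Of 10 epithelial markers, 4 had at most 3 reads in every library, among them EPCAM, with KRT19 at 0, and the list summed to 12.5 to 13.2 CPM in control and 19.6 CPM in both RUNX3 KO libraries. Skeletal and heart muscle markers summed to 34.8 to 36.0 CPM over the 4 libraries, most of it TNNT1, while MYOD1, MYOG, MYF5 and TTN had 0 reads. A list of 6 fibroblast genes fell in all 6, where 24.4% of all tested genes were called lower. Its summed level was 1660 to 1730 CPM in control and 1010 CPM in both RUNX3 KO libraries. Most of that was COL1A1, with means of 1250 CPM in control and 683 CPM in RUNX3 KO cells. The part of this list in the results above was not tested. In bulk RNA, fewer cells that express a gene and less RNA per cell cannot be told apart.

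Promoter windows of 300 bases around annotated starts (RefSeq, GRCh38.p14) were searched for TGTGGT and TGCGGT, forms of the core sequence that RUNX proteins are known to bind, on both strands. The table gave 22 windows for 7 of the 9 genes, all but SNTB1 and SGCE. One or the other form occurred in 4 of the 22 windows (18.2%), against 19.6% of all 35116 windows (TGTGGT in 13.1% and TGCGGT in 7.29%), and no match overlapped another. The matches were in SNTB2, SGCB, 1 of 7 windows of DMD and 1 of 7 of DTNA, and no match was in the windows of DAG1, UTRN or DTNB. Windows of the 3 better counted genes are printed 5′ to 3′ along the gene, ending 50 bases after the start, to show where the motif letters, in capitals, stand. In DMD and SNTB2 the capitals are the reverse complement of the form searched. In DMD, at chrX:33339339-33339638 (minus strand), the most upstream of its windows, the match began 134 bases before the start. In SGCB, at chr4:52038250-52038549 (minus strand), it began 21 bases before the start, and in SNTB2, at chr16:69186914-69187213 (plus strand), 188 bases before it. A match describes letters only, and the count data do not show which start was used.
DMD: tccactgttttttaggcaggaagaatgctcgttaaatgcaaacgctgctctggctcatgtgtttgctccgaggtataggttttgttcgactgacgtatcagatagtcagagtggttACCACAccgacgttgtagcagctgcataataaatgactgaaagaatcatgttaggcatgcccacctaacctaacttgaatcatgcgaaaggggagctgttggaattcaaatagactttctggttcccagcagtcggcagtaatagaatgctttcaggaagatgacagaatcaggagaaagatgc
SGCB: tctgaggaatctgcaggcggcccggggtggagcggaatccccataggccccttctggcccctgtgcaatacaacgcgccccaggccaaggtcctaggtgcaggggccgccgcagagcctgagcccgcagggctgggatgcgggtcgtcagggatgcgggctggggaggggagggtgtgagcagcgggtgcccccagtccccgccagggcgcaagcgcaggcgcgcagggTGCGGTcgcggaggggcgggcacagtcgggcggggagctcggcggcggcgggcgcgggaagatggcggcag
SNTB2: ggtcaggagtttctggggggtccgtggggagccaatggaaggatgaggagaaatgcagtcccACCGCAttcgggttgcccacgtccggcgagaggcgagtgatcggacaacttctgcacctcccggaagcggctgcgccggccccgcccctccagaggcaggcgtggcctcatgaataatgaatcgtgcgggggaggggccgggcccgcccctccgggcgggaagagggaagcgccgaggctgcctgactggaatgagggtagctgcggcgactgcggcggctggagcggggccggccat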

How the data were processed

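RNA was sequenced from HGC-27 control and RUNX3 KO cells, 2 libraries each. The authors deposited, for each library, raw read counts per gene symbol without normalization. Per the labels, the reads were processed on hg19 with bcl2fastq, HISAT2 2.1.0 and HTSeq, whereas the methods of the paper name STAR, featureCounts and GENCODE. The strand setting is not given in the sources used here. The 5 closing rows without a gene held 25.9 to 28.1% of counts and were left out.

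Counts were fitted over the whole table in R 4.3.3 with edgeR 4.0.16: filterByExpr (minimum count 10, minimum total 15), TMM scaling, glmQLFit and glmQLFTest (prior count 0.125), without a replicate block, and Benjamini-Hochberg adjustment. The SE was derived from the F statistic, as the size of the fitted log2 change over root F. The common dispersion was 0.000211, a coefficient of variation of 1.45%. Replicates differed by slightly more than sampling noise, with a chi-square per degree of freedom of 1.22 and 1.18 within conditions, and were each counted as 1 sample. On simulated counts for this comparison (12907 genes), 54% of genes changed 1.2-fold were recovered, 88% at 1.5-fold, 96% at 2-fold and 100% at 4-fold, with 6 false calls. The simulation gave every gene the common dispersion and changed only 200 genes, all above a minimum mean count. Its figures therefore do not give the error rate of the real comparison, or of genes with few reads such as DMD. At this depth a gene with 3 reads or fewer is at the floor, and shares carry exact Clopper-Pearson intervals at 95% confidence from scipy 1.17.1.

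Positions, exon lengths and shared windows came from GENCODE lifted to GRCh37, the build called hg19, which may not be the annotation used for counting. Of the tested genes, 94.2% had a position, and neighbourhoods took 20 tested genes on each side. The named genes were the 9 genes of the complex, RUNX3, genes of the lists with at least 2-fold change or among the 3 most changed, the 5 genes most like SNTB1 and 3 most like UTRN (mean of at least 50 reads, prior count 2), and genes whose exons overlap; HAS2, SPATA18 and the listed genes at or near 0 were named after their values were seen. Some genes of the lists, and a share that used 1 of them, are not reported or drawn here. Members and lists were chosen with earlier results of these data known. Alternatives were other scalings, DESeq2 1.42.0, edgeR's exact test, limma-voom (limma 3.58.1), a test against a 1.2-fold change, other filters and prior counts, a replicate block and each library left out; lengths of MANE Select transcripts were added after seeing the data.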

Additional observations from a re-analysis of the deposited data

How the results depend on the processing

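SNTB1, DAG1 and SGCB kept their direction and their call wherever they were tested, with SNTB1 between -3.11 and -3.05 on the log2 scale. DMD ranged from 4.89 to 9.18. With almost no control reads, a tested DMD had to differ, so its kept call adds no support and is a description only. SNTB2 lost its call in 6 of 15 alternatives and SGCE in 5 of 15, without a change of sign. Genes without a call crossed 0: UTRN went to -0.01 with library size alone and with upper quartile scaling and from -0.08 to 0.10 with a library left out, and DTNB from -0.25 to 0.14. The 4 lower genes became 2 with DESeq2 and with the test against a 1.2-fold change, and 2 to 3 with a library left out. Requiring 10 reads in every library removes DMD by construction and left 1 higher gene, and 0 by the criteria of the study. The SNTB1 share changed by -46.3 points per kilobase of merged exons; the UTRN share changed by -3.45 and -10.8 points per kilobase of merged exons and of MANE Select transcript.

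Over all genes, 6341 calls became 3692 with DESeq2, 2386 with the test against 1.2-fold, and 3014 and 2663 without RUNX3 KO replicate 1 or 2; the cause was not tested. The labels do not say that a replicate number marks a shared culture or batch, and deviations of same-numbered libraries had a correlation of 0.026 across genes. With the replicate block, SNTB1 had a log2 fold change of -3.08, DMD 6.85, DAG1 0.56 and SGCB -0.53, and no call among the 9 genes changed. Depth limits DTNA and the size of the DMD change.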

Other observations

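Markers of other cell types were looked up for the same libraries. Smooth muscle markers (4 genes) summed to 23.5 to 26.8 CPM in control and 13.3 to 13.6 CPM in RUNX3 KO libraries, with SMTN lower (log2 fold change -1.29) and CNN1 higher (0.75) by edgeR. Endothelial markers (4 genes, 3 of them at 0 in every library) summed to at most 0.339 CPM, glial markers (4 genes) to at most 0.170 CPM and immune markers (4 genes) to at most 2.29 CPM. All 6 fibroblast genes were called lower, against 24.4% of all tested genes, PDGFRA (-2.33), PDGFRB (-1.25) and COL1A1 (-0.87) most. Of the epithelial markers, 4 were tested and 3 were called higher in RUNX3 KO cells, against 24.5% of all tested genes. These were KRT8 (2.33), CDH1 (0.77) and CLDN7 (0.75), while MUC1 was not called (-0.14). Reads were few: CDH1 had 15 and 21 in control and 30 and 32 in RUNX3 KO libraries, and CLDN7 19 and 14 against 35 and 21. TNNT2, a troponin gene of heart muscle, went from 6 and 5 reads to 22 and 31 (2.23). These are log2 fold changes from edgeR, and their relation to SNTB1 or DMD was not tested.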
